A study of Homo sapiens with 24 samples.

Results

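In Mel-624, a human melanoma cell line, the effect of silencing the insulin-like growth factor 1 receptor (IGF1R) was compared between low oxygen (hypoxia) and normal oxygen (normoxia). The quantity followed throughout is the interaction, the knockdown effect in hypoxia minus the knockdown effect in normoxia, estimated for every gene from all 12 Mel-624 arrays of a series of 24 Illumina expression BeadChip arrays. Cells grown with 5% serum were transfected with a non-targeting siRNA pool (siControl) or an siRNA pool against IGF1R (siIGF1R) and then kept for 3 days at either oxygen level. The 4 groups of 3 arrays, labelled A, B and C, were normoxia siControl, normoxia siIGF1R, hypoxia siControl and hypoxia siIGF1R. The hypoxia titles spell the siRNA siIGFR1, and it was read as the same IGF1R pool, because only 1 such pool is described. The Mel-624 descriptions give no oxygen percentage for this line.

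IGF1R is a receptor tyrosine kinase. Once bound by IGF1 or IGF2 it recruits the adaptors IRS1 and IRS2 and feeds the PI3K-AKT-mTORC1 and RAS-ERK cascades; AKT keeps FOXO transcription factors out of the nucleus, while ERK drives transient transcription of early response genes such as FOS and EGR1. In low oxygen the HIF factors escape prolyl hydroxylation and raise genes of glucose use, angiogenesis and matrix modification, so that both pathways meet on nutrient and growth control in tumour cells.

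Each array detected 13948 to 15475 of its 47231 probes, 29.5% to 32.8%, and the mean signal before normalization lay between 290 and 388. The number of arrays, 3 per group, limits the precision. All 12 arrays were on 1 chip. Normoxia siControl stood at positions 1 to 3 and normoxia siIGF1R at 4 to 6. Hypoxia siControl stood at 7, 8 and 10 and hypoxia siIGF1R at 9, 11 and 12. With the groups at neighbouring positions, position and group can hardly be told apart. Along the axis that carried 19.7% of the spread within groups, the siIGF1R A arrays of both oxygen levels lay together at the end opposite to normoxia siControl array B. On it the A arrays of every group lay above 0 (1.93 to 11.04) and the B arrays of every group below 0 (-9.76 to -2.13). The C arrays lay on both sides. Whether the letters mark a batch is not described and was not tested. Whether replicates came from separate cultures is not described, and p-values therefore cover only the spread between these arrays, which may be technical. The melanocytic markers MITF, SOX10, PMEL, MLANA, TYR and TYRP1 were detected on all 12 arrays and S100B on 0, and no probe was used for DCT or S100A1. Of the markers of other cell types, 10 of 10 keratinocyte genes, 7 of 8 endothelial genes, 9 of 11 immune genes and 6 of 10 fibroblast genes with a probe were detected on no array. The summed fibroblast marker signal ranged from 470 to 507 in normoxia siControl, from 540 to 581 in normoxia siIGF1R, from 507 to 607 in hypoxia siControl and from 484 to 541 in hypoxia siIGF1R, and its part in the results was not tested.

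The targeted transcript was lowered at both oxygen levels, from a higher starting level in hypoxia. Levels are normalized log2 intensities of 1 probe per gene, so that a difference of 1 is a 2-fold change. IGF1R lay at 6.98, 7.06 and 7.07 in normoxia siControl arrays A, B and C, at 6.03, 6.28 and 6.39 in normoxia siIGF1R, at 8.46, 8.65 and 8.23 in hypoxia siControl and at 6.19, 7.02 and 6.59 in hypoxia siIGF1R. The siIGF1R arrays were below their own controls without overlap at both oxygen levels, and the hypoxia controls were the highest of the 4 groups. IGF1R rose in hypoxia by 1.41 ± 0.18 (SE) in siControl cells (adjusted p = 2.78e-05), and its hypoxia effect in siIGF1R cells was 0.37 ± 0.18 (adjusted p = 0.104). The knockdown effect on IGF1R was -0.81 ± 0.18 in normoxia (adjusted p = 0.00992) and -1.84 ± 0.18 in hypoxia (adjusted p = 2.47e-05). Their difference, the interaction of -1.04 ± 0.25, did not pass the threshold of 0.05 on the Benjamini-Hochberg adjusted p of limma (0.0779), and over the alternative settings its adjusted p ranged from 0.0128 to 0.166. Without hypoxia siIGF1R array B the interaction was -1.25 with an adjusted p of 0.0224. Any difference in receptor loss between the oxygen levels goes with oxygen itself, and the parts of each in the results below cannot be told apart.

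The other components of the axis gave no called interaction. The IGF ligand, receptor and binding protein list had 6 tested members, of which 0 had a called interaction. INSR was detected on at most 1 array and IGF1 on 0, so neither was tested. The interaction of IRS1 was 0.28 ± 0.18 (adjusted p = 0.519), that of IRS2 was -0.30 ± 0.15 (adjusted p = 0.388) and that of IGF2R, the receptor that clears IGF2, was 0.16 ± 0.15 (adjusted p = 0.666). IGF2R rose on knockdown by 0.62 in normoxia (adjusted p = 0.0023) and by 0.78 in hypoxia (adjusted p = 0.00023). Of 32 tested PI3K, AKT and mTORC1 pathway genes and 10 RAS, RAF and ERK pathway genes, 0 had a called interaction, and the list medians were -0.07 and -0.09 against 0.01 over all 9292 genes tested. With only 0.818% of all genes called, 0 calls in lists of these sizes does not set them apart.

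Genes called at both oxygen levels nearly all moved the same way on knockdown, and for 76 genes the effect differed between the levels by the test of the difference. In normoxia the knockdown raised 789 genes (8.49% of those tested) and lowered 694 (7.47%), 1483 in all. In hypoxia it raised 1220 (13.1%) and lowered 1179 (12.7%), 2399 in all. Of the genes called at both levels, 438 rose and 441 fell at both levels and 9 moved in opposite directions. Over all 9292 genes the normoxia and hypoxia effects, which share no array, correlated at r = 0.617 and rho = 0.584. This is a description across genes, which are not independent replicates. The median absolute effect was 0.179 in normoxia and 0.212 in hypoxia. The interaction was positive and called for 21 genes (0.226%) and negative and called for 55 genes (0.592%), together 0.818%. At an unadjusted p below 0.05 there were 677 positive and 734 negative interactions. Among the 1511 genes called in hypoxia only, 45 had a called interaction, and among the 595 called in normoxia only, 9 did. For the remaining genes called at 1 level only, a difference between the levels was not shown.

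**Figure D1:**
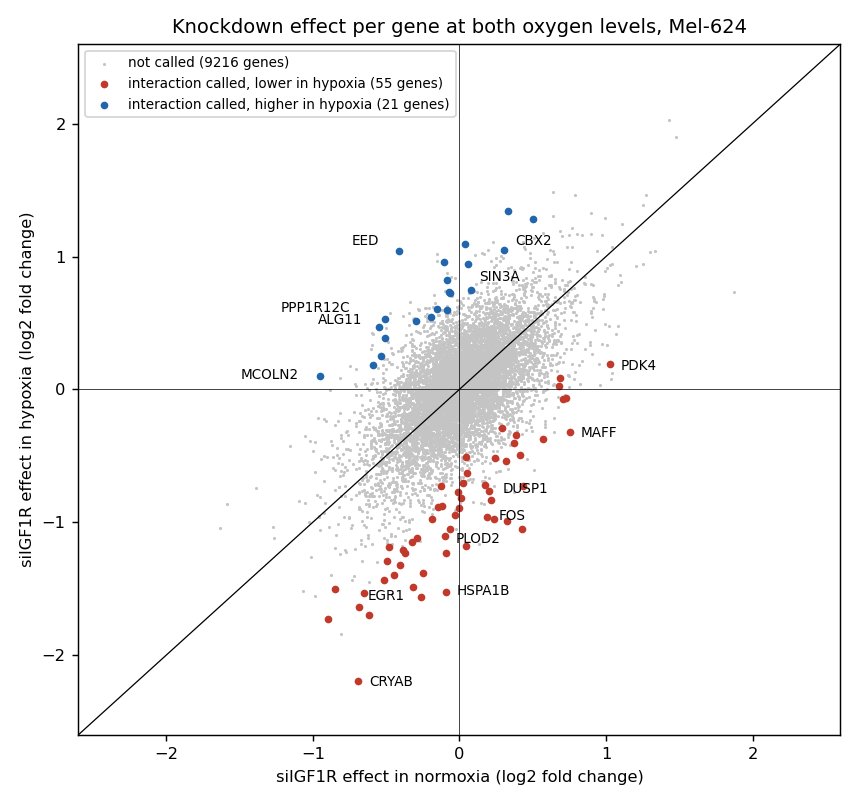
Each point is a gene, with the siIGF1R effect in normoxia on the horizontal axis and in hypoxia on the vertical axis (log2 fold change, 3 arrays against 3). The 55 genes with a called negative interaction (red) lie below the line of equal effects and the 21 with a positive one (blue) above it; grey points are the 9216 genes not called.

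Among the negative interactions the most frequent pattern was a fall on knockdown in hypoxia with no call in normoxia. Of the 55, 33 were called down in hypoxia and not called in normoxia, 11 were down at both levels, 5 were up in normoxia and down in hypoxia, and 6 were up in normoxia and not called in hypoxia. Hypoxia raised 23.2% and lowered 28.4% of all genes in siControl cells, and raised 22.7% and lowered 27.3% in siIGF1R cells. Seen along the oxygen axis, 35 of the 55 had risen in hypoxia in siControl cells: 15 of these also rose in siIGF1R cells, 15 were not called there and 5 fell. Of the other 20, 13 fell in hypoxia in both kinds of cells and 7 fell in siIGF1R cells only. The interaction is also the hypoxia effect in siIGF1R cells minus that in siControl cells. The counts by knockdown and by oxygen therefore come from the values that selected these genes. They describe the set, and setting them against the shares of all genes is not a test. The interactions of the 55 ranged from -1.50 to -0.56 with a median of -0.87. Many lay close to the threshold: 26 of the 55 and 7 of the 21 had an adjusted p of 0.045 or more. The last gene inside it was EED (0.0496) and the nearest just outside it was RAB3GAP1 (interaction -0.61).

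Early response genes were among the largest negative interactions. Of 27 tested early response and ERK feedback genes, 5 had a called negative interaction (FOS, EGR1, DUSP1, PHLDA1 and MYC) and 0 a positive one, against 0.592% and 0.226% of all genes. Below 0 lay 18 of the 27, against 4567 of all 9292 genes. The list median was -0.14, against 0.01 over all genes tested. FOS encodes a subunit of the AP-1 transcription factor, EGR1 a zinc finger transcription factor, DUSP1 a phosphatase that inactivates MAP kinases, and MYC a growth-promoting transcription factor. In hypoxia, the knockdown effect was called down for 9 of the 27 (12.7% of all genes) and up for 2 (13.1%); in normoxia it was called down for 1 (7.47%) and up for 3 (8.49%).

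The promoters of 3 of these genes are shown because the genes moved together and stood at the top of the test. They are RefSeq sequence on GRCh38.p14, from 250 bases before to 50 bases after the annotated start, 5′ to 3′ on the gene's strand: FOS at chr14:75278578-75278877 (plus strand), EGR1 at chr5:138465229-138465528 (plus strand) and DUSP1 at chr5:172771146-172771445 (minus strand). Capitals mark the cyclic AMP response element core, searched as TGACG or its complement CGTCA, and the CArG box bound by serum response factor, which are motifs chosen after the results were seen.
FOS: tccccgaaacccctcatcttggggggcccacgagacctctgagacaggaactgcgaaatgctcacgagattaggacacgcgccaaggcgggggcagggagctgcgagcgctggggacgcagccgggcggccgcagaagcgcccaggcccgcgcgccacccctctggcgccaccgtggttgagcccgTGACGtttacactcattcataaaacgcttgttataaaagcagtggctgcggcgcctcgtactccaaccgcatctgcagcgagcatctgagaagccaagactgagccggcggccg
EGR1: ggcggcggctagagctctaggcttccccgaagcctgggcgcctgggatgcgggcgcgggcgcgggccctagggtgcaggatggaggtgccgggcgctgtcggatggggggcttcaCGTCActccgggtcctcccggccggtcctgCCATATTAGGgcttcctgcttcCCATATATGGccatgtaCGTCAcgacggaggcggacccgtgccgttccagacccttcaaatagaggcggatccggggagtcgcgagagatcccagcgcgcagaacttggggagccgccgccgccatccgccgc
DUSP1: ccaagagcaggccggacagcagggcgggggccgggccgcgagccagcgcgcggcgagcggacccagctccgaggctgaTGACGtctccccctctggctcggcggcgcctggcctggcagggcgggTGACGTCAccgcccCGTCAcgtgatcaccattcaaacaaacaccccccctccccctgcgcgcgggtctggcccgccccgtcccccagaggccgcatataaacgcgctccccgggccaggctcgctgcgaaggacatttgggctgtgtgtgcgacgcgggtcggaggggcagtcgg
EGR1 held 2 CArG boxes, starting 105 and 83 bases before the start, and 2 cyclic AMP response element cores. FOS held 1 core, 64 bases before the start, and DUSP1 held 4, of which those starting at 125 and 122 bases overlap as one palindrome. The core occurred in 34.0% of the 47 called negative genes with a promoter sequence and in 35.9% of the 7593 tested genes with one; CArG boxes occurred in 2 of the 47 (4.26%) and in 1.11% of the tested genes. These are matches of letters, not measured binding.

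FOS lay at 8.77, 8.82 and 8.45 in normoxia siControl arrays A, B and C, at 8.98, 8.87 and 8.76 in normoxia siIGF1R, at 10.39, 10.36 and 10.38 in hypoxia siControl and at 9.45, 9.47 and 9.33 in hypoxia siIGF1R. All 3 hypoxia controls stood above every other array, and the hypoxia siIGF1R arrays lay between them and the normoxia arrays, whose groups overlapped. FOS rose in hypoxia by 1.70 in siControl and by 0.55 in siIGF1R cells. Its knockdown effect was 0.19 ± 0.11 in normoxia (adjusted p = 0.253) and -0.96 ± 0.11 in hypoxia (adjusted p = 7.11e-05), an interaction of -1.15 ± 0.15 (adjusted p = 0.00786).

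EGR1 was also highest in the hypoxia controls. Its level lay at 7.30, 7.15 and 7.32 in normoxia siControl arrays A, B and C, at 7.17, 6.85 and 6.97 in normoxia siIGF1R, at 8.46, 8.93 and 8.56 in hypoxia siControl and at 7.19, 7.21 and 6.87 in hypoxia siIGF1R. The hypoxia controls were apart from the other 9 arrays, among which the groups overlapped. The knockdown effect was -0.26 ± 0.14 in normoxia (adjusted p = 0.227) and -1.56 ± 0.14 in hypoxia (adjusted p = 1.48e-05), and the hypoxia effect was 1.39 in siControl cells and 0.09 in siIGF1R cells (adjusted p = 0.612). The interaction of EGR1 was -1.30 ± 0.20 (adjusted p = 0.0128).

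DUSP1 lay at 8.21, 8.05 and 8.10 in normoxia siControl arrays A, B and C, at 8.32, 8.43 and 8.26 in normoxia siIGF1R, at 9.06, 9.13 and 9.01 in hypoxia siControl and at 8.27, 8.38 and 8.04 in hypoxia siIGF1R. Again the 3 hypoxia controls were the highest arrays, and the hypoxia siIGF1R arrays overlapped both normoxia groups, which did not overlap each other. The knockdown effect of 0.22 ± 0.10 in normoxia was not called, the effect of -0.84 ± 0.10 in hypoxia was (adjusted p = 0.00012), and the interaction was -1.05 ± 0.14 (adjusted p = 0.00786). PHLDA1, a pleckstrin homology-like domain protein, had an interaction of -0.68 ± 0.12 (adjusted p = 0.0292) by its brightest probe, and its other kept probe gave -0.02. MYC had -0.76 ± 0.16 (adjusted p = 0.0491), close to the threshold, and was called in 0 of the 12 fits that left out 1 array.

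Other members of the list had no called interaction. JUN, the partner of FOS in AP-1, had knockdown effects of -0.41 in normoxia (not called) and -0.92 in hypoxia (called) and an interaction of -0.51 (adjusted p = 0.25). DUSP6, an ERK-specific phosphatase, fell on knockdown at both levels, by 0.46 and 0.42 on the log2 scale. The interaction of CCND1, cyclin D1, was 0.08 ± 0.16 (adjusted p = 0.861). The ERK feedback inhibitors SPRY2 and SPRY4 had interactions of 0.34 and 0.02, neither called.

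**Figure D2:**
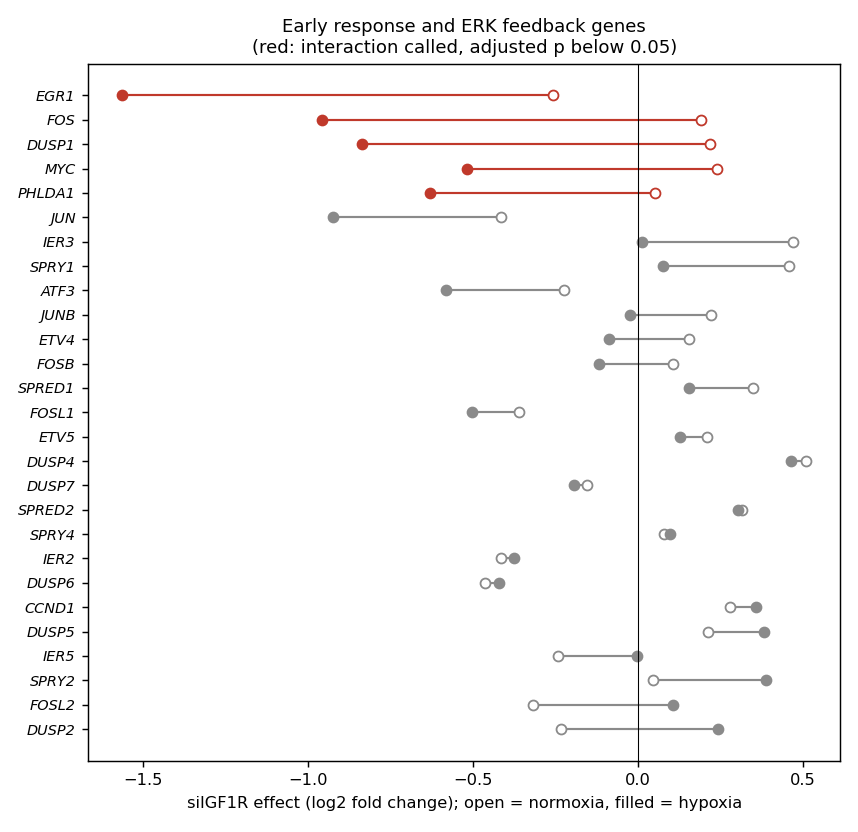
Knockdown effects of the 27 tested early response and ERK feedback genes (log2 fold change; open circle normoxia, filled circle hypoxia), ordered by interaction. The 5 genes with a called interaction (red) all have the filled circle to the left of the open one, from -1.30 for EGR1 to -0.68 for PHLDA1.

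Immediate transcription factors outside that list were among the called genes as well. NR4A3, an orphan nuclear receptor, lay at 7.58, 7.48 and 7.20 in normoxia siControl arrays A, B and C, at 7.68, 7.51 and 8.05 in normoxia siIGF1R, at 9.68, 9.68 and 9.67 in hypoxia siControl and at 8.46, 8.93 and 8.66 in hypoxia siIGF1R. Every hypoxia control exceeded every hypoxia siIGF1R array, and in normoxia the groups overlapped. The interaction of NR4A3 was -1.32 ± 0.21 (adjusted p = 0.0162), with a hypoxia effect of 2.25 in siControl and 0.94 in siIGF1R cells. MAFF, a small MAF transcription factor, turned direction: the knockdown raised it by 0.75 ± 0.11 in normoxia (adjusted p = 0.000797) and it fell by 0.32 ± 0.11 on the log2 scale in hypoxia (adjusted p = 0.0405; interaction -1.07, adjusted p = 0.00786). Its dimmer probe gave an interaction of -0.55. CCN1, a matricellular protein gene, was detected on no normoxia array; it was at least 6.51-fold higher in hypoxia in siControl and at least 2.35-fold higher in siIGF1R cells, and fell by 1.48 on the log2 scale on knockdown in hypoxia (adjusted p = 7.1e-06).

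**Figure D3:**
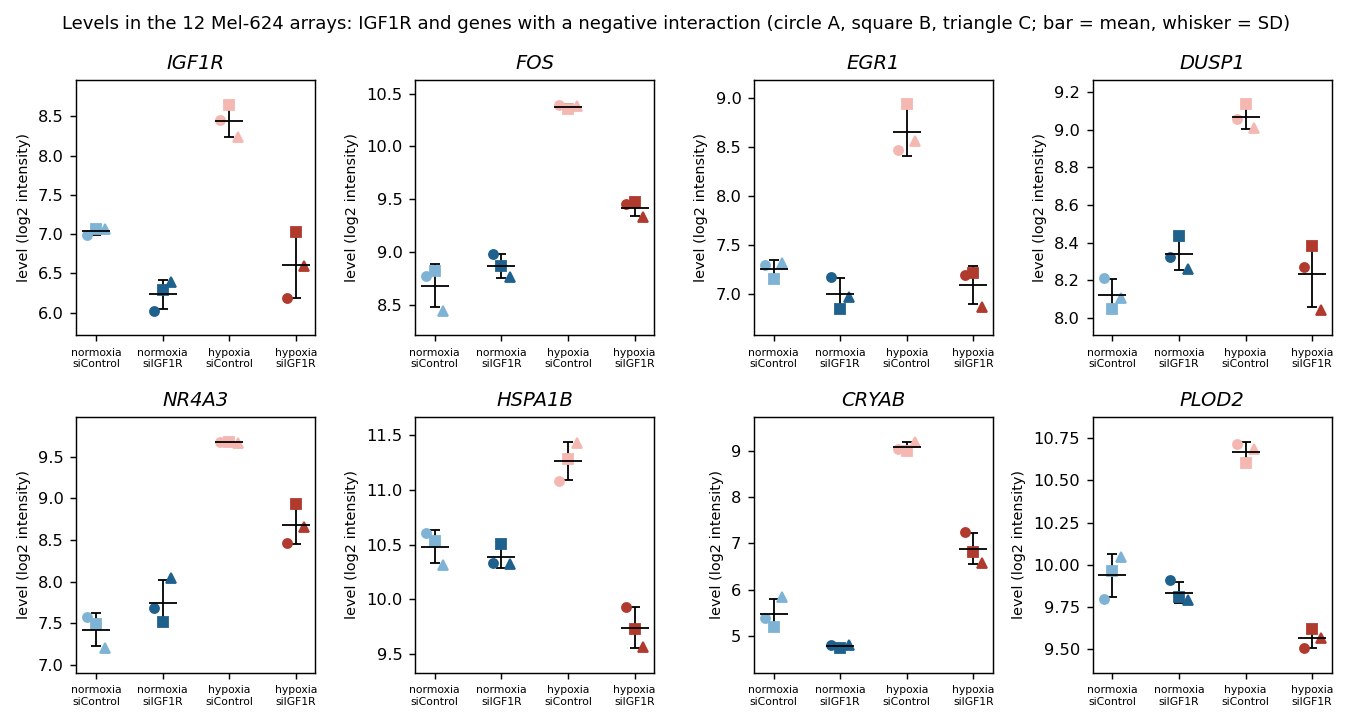
Levels (log2 intensity) of IGF1R and 7 genes with a called negative interaction in the 12 arrays; symbols are arrays A, B and C, bars are group means and whiskers SD (n = 3). In each of the 8 panels the hypoxia siControl arrays are the highest, and the interaction of IGF1R itself was not called.

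Stress-inducible chaperones were among the largest negative values. Of 18 tested heat shock genes, 2 had a called negative interaction, CRYAB and HSPA1B, and 0 a positive one, against 0.592% and 0.226% of all genes. Below 0 lay 13 of the 18, against 4567 of all 9292 genes, and the list median was -0.12, against 0.01. HSPA6, an HSP70 gene that lies outside the list, was also called. CRYAB encodes the small heat shock protein alpha B-crystallin, and HSPA1B an inducible HSP70. The HSPA1B promoter is shown for its heat shock element (RefSeq, GRCh38.p14, chr6:31827488-31827787, plus strand); capitals mark the letters searched as GAANNTTC, also chosen after the results were seen.
HSPA1B: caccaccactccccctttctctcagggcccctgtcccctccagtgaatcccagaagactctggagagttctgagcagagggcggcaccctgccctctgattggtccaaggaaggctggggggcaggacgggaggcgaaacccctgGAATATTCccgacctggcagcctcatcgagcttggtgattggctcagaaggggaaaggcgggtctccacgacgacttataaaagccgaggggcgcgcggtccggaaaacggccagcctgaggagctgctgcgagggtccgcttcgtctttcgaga
The element starts 105 bases before the annotated start. It occurred in 2 of the 47 called negative genes with a promoter sequence (HSPA1B and HSPA6) and in 4.75% of the tested genes.

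HSPA1B lay at 10.60, 10.53 and 10.31 in normoxia siControl arrays A, B and C, at 10.34, 10.51 and 10.33 in normoxia siIGF1R, at 11.08, 11.28 and 11.43 in hypoxia siControl and at 9.93, 9.73 and 9.56 in hypoxia siIGF1R. In normoxia the groups overlapped. In hypoxia the controls were the highest arrays and the siIGF1R arrays the lowest of all 12, without overlap. The hypoxia effect turned from 0.78 in siControl cells (adjusted p = 0.000184) to -0.65 in siIGF1R cells (adjusted p = 0.000814), and the interaction was -1.43 ± 0.18 (adjusted p = 0.00786). The near-identical HSPA1A had -0.71 (adjusted p = 0.132) by its own probe, and a probe may read either copy, so which of the pair changed is uncertain.

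CRYAB lay at 5.38, 5.19 and 5.84 in normoxia siControl arrays A, B and C, at 4.81, 4.74 and 4.79 in normoxia siIGF1R, at 9.05, 9.0 and 9.20 in hypoxia siControl and at 7.26, 6.82 and 6.59 in hypoxia siIGF1R. It was detected on 1 normoxia control array and on no normoxia siIGF1R array, and on all 6 hypoxia arrays. Within hypoxia the siIGF1R arrays stood below the controls without overlap, and the knockdown effect was -2.19 ± 0.17 (adjusted p = 7.1e-06). In siIGF1R cells CRYAB was at least 2.57-fold higher in hypoxia than in normoxia. The fitted interaction of -1.50 ± 0.24 (adjusted p = 0.0162) depends on a normoxia group without detection, so the normoxia knockdown effect is only a bound. HSPA6 had an interaction of -1.48 ± 0.23 (adjusted p = 0.0133). The constitutive chaperones HSPA8 and HSP90AA1 had interactions of -0.01 and -0.13, neither called.

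Canonical hypoxia-inducible genes rose in hypoxia with and without siIGF1R and had no called interaction. Of 27 tested, 24 rose in hypoxia in siControl cells (23.2% of all genes) and 22 in siIGF1R cells (22.7%). A called interaction was found for 0, but with only 0.818% of all genes called this does not set the list apart. Below 0 lay 22 of the 27, against 4567 of all 9292 genes, and the list median was -0.15, against 0.01. The smallest p in the list belonged to BNIP3L (-0.63) and BHLHE41 (-0.54), neither called. VEGFA, the vascular growth factor, had an interaction of -0.25 ± 0.21 (adjusted p = 0.628) by its brightest probe, and another kept probe gave 0.31. That of SLC2A1, the glucose transporter GLUT1, was -0.47 ± 0.20 (adjusted p = 0.294). ADM, adrenomedullin, had -0.22 and DDIT4, an mTORC1 inhibitor, had -0.17, whereas NDRG1 had 0.26, none of them called. Of 24 glucose uptake and glycolysis genes 0 were called, with 21 below 0 and a median of -0.12. The smallest p there belonged to ENO2 (-0.52) and PFKFB4 (-0.55), neither called. EPAS1, which encodes HIF-2 alpha, rose on knockdown by 0.89 in normoxia and by 0.33 in hypoxia, and its interaction of -0.55 missed the threshold (adjusted p = 0.0684).

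PLOD2, which encodes a lysyl hydroxylase of collagen and lies outside that list, did differ. Its promoter is shown because hypoxia response element cores lie in it (RefSeq, GRCh38.p14, chr3:146161135-146161434, minus strand; capitals mark ACGTG or GCGTG on either strand, that is also CACGT or CACGC).
PLOD2: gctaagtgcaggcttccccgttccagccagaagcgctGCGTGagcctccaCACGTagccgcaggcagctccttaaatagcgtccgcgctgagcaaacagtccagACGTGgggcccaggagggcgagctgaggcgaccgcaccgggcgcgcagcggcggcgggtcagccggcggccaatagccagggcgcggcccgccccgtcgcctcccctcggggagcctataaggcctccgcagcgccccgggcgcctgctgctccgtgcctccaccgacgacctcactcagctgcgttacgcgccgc
The 3 cores start 213, 200 and 146 bases before the annotated start. Such a core occurred in 59.6% of the 47 called negative genes with a promoter sequence, in 14 of the 15 positive ones and in 64.2% of the tested genes. PLOD2 lay at 9.80, 9.96 and 10.05 in normoxia siControl arrays A, B and C, at 9.91, 9.81 and 9.79 in normoxia siIGF1R, at 10.72, 10.60 and 10.69 in hypoxia siControl and at 9.51, 9.62 and 9.57 in hypoxia siIGF1R. The hypoxia controls were the highest arrays and the hypoxia siIGF1R arrays the lowest, while the normoxia groups overlapped. The knockdown effect was -0.10 ± 0.09 in normoxia (adjusted p = 0.49) and -1.10 ± 0.09 in hypoxia (adjusted p = 8.89e-06), an interaction of -1.0 ± 0.13 (adjusted p = 0.00786).

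Most genes of sterol synthesis had interactions below 0, and 1 of them passed the threshold. Of 19 tested sterol synthesis and uptake genes, the knockdown was called down for 6 in normoxia (7.47% of all genes) and for 12 in hypoxia (12.7%). The interaction was below 0 for 15 of 19 (4567 of all 9292 genes) and at an unadjusted p below 0.05 for 9 (1411 of all 9292). It was called for 1, which was negative (0.592% of all genes). The list median was -0.32, the lowest of the lists with 5 or more tested members. DHCR7, which catalyses the last step of cholesterol synthesis, lay at 10.58, 10.69 and 10.54 in normoxia siControl arrays A, B and C, at 10.04, 10.46 and 10.43 in normoxia siIGF1R, at 11.16, 11.14 and 11.12 in hypoxia siControl and at 9.85, 10.19 and 10.04 in hypoxia siIGF1R. The hypoxia controls were the highest group and the siIGF1R arrays of both oxygen levels overlapped. The interaction of DHCR7 was -0.83 ± 0.17 (adjusted p = 0.0488), and it was called in 2 of the 12 fits that left out 1 array. SQLE, MSMO1 and SC5D, enzymes of the same pathway, had interactions of -0.50, -0.68 and -0.70 with adjusted p of 0.0605, 0.0821 and 0.092. LSS, lanosterol synthase, lay on the other side at 0.43 (adjusted p = 0.13). Among 15 fatty acid synthesis genes, the desaturase SCD5 was called (-0.65 ± 0.14, adjusted p = 0.0489) and the list median was -0.17. SCD5 was called in 0 of the 12 fits that left out 1 array.

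Members of the FOXO list moved both ways on knockdown, and 1 had a called interaction. Of 28 tested FOXO factors and targets, 11 rose in normoxia (8.49% of all genes) and 6 in hypoxia (13.1%), while 1 fell in normoxia (7.47%) and 4 in hypoxia (12.7%). The called gene was PDK4, a kinase that shuts off pyruvate dehydrogenase (0.592% of all genes had a called negative interaction), and the list median was -0.10. PDK4 lay at 9.64, 9.56 and 9.59 in normoxia siControl arrays A, B and C, at 10.89, 10.50 and 10.46 in normoxia siIGF1R, at 10.95, 11.01 and 10.92 in hypoxia siControl and at 11.08, 11.21 and 11.15 in hypoxia siIGF1R. The siIGF1R arrays exceeded their controls at both levels without overlap, by 1.02 ± 0.11 in normoxia (adjusted p = 0.000145) and by 0.19 ± 0.11 in hypoxia (adjusted p = 0.23). The interaction of PDK4 was -0.84 ± 0.16 (adjusted p = 0.034), and it was called in 3 of the 12 fits that left out 1 array. TXNIP, an inhibitor of glucose uptake, rose by 1.25 and by 0.95 (interaction -0.31, adjusted p = 0.359).

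Several called negative genes fell in hypoxia in both kinds of cells, and further with siIGF1R. BMPR2, a type II receptor for bone morphogenetic proteins, lay at 8.19, 8.06 and 8.38 in normoxia siControl arrays A, B and C, at 8.63, 8.38 and 8.33 in normoxia siIGF1R, at 6.79, 6.88 and 7.01 in hypoxia siControl and at 5.96, 5.93 and 5.85 in hypoxia siIGF1R. The hypoxia siIGF1R arrays were the lowest without overlap. Its interaction was -1.22 ± 0.16 (adjusted p = 0.00786), with hypoxia effects of -1.32 in siControl and -2.53 in siIGF1R cells. TRPM1, a melanocyte cation channel, lay at 8.32, 8.38 and 8.62 in normoxia siControl arrays A, B and C, at 8.47, 8.35 and 8.64 in normoxia siIGF1R, at 7.10, 7.09 and 6.89 in hypoxia siControl and at 6.03, 5.57 and 5.95 in hypoxia siIGF1R. Its normoxia groups overlapped, its hypoxia groups did not, and the interaction was -1.22 ± 0.19 (adjusted p = 0.0139). TRPM1 was the 1 called gene of 23 melanocyte differentiation genes (0.818% of all genes were called). TYRP1, a melanin synthesis enzyme, had an interaction of 0.45 (adjusted p = 0.242). VMA21, an assembly factor of the vacuolar proton pump, had -1.14 ± 0.17 (adjusted p = 0.0107). PXMP2, a peroxisomal membrane channel, fell on knockdown by 0.69 on the log2 scale in normoxia and by 1.63 in hypoxia (interaction -0.95, adjusted p = 0.01). STAMBPL1, a deubiquitinase, was detected on no hypoxia siIGF1R array, and was at least 1.31-fold lower there than in the hypoxia controls.

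After the same background correction, each array was also scaled by the median of all its probes, in place of equalizing quantiles. This moved the median interaction of all genes from 0.01 to 0.12. With it the medians of the PI3K, AKT and mTORC1 (0.05), RAS, RAF and ERK (0.02), FOXO (0.01), heat shock (0.03), ATF4 (0.02) and melanocyte (0.08) lists lay above 0, though below that of all genes. Scaling by the median of the kept probes only was chosen after seeing the data. It gave these lists, in the same order, -0.05, -0.08, -0.09, -0.08, -0.08 and -0.02, against 0.02 over all genes.

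Cell division lists gave no called interaction. With only 0.818% of all genes called, 0 calls in lists of the sizes below does not set them apart. Of 48 DNA replication and G1/S genes, 0 were called, 13 had an unadjusted p below 0.05 and 32 lay below 0, with a median of -0.11. Of all 9292 genes, 1411 had an unadjusted p below 0.05 and 4567 lay below 0. In that list the knockdown was called down for 7 genes in normoxia (7.47% of all genes) and for 20 in hypoxia (12.7%), and up for 0 and 4. RFC5, a subunit of the clamp loader, had an interaction of -0.59 (adjusted p = 0.0586). Of 53 G2/M and mitosis genes 0 were called, and the knockdown was called down for 15 in normoxia (7.47% of all genes) and 19 in hypoxia (12.7%), and up for 0 at both levels. Of 65 ribosomal protein genes and 45 oxidative phosphorylation genes 0 were called, with medians of 0.03 and 0.03. The 35 ATF4 and amino acid response genes and the 20 ER chaperone genes also had 0 called, with medians of -0.14 and -0.17.

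**Figure D4:**
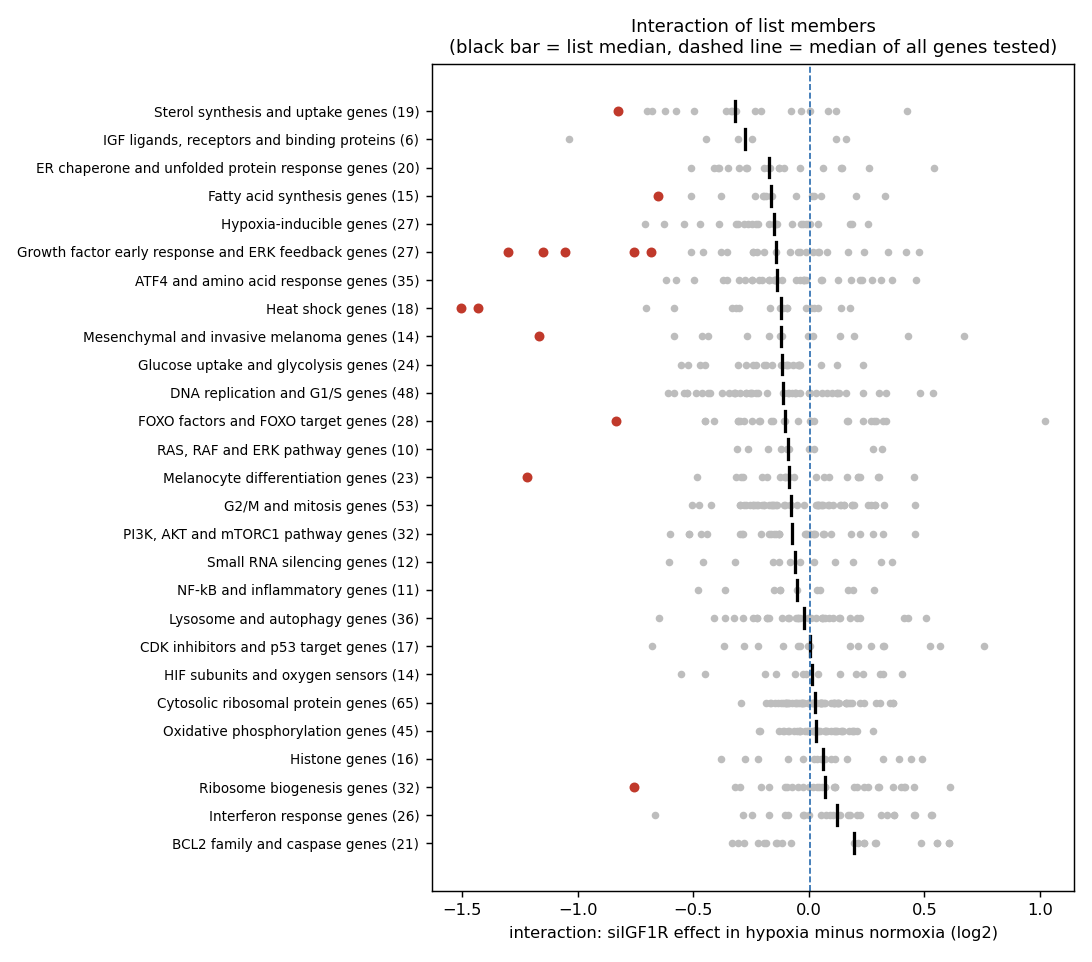
Interactions (log2) of the tested members of each gene list with 5 or more tested members; the number of members follows the name, black bars are list medians and red points are called genes. The sterol list has the lowest median (-0.32) and the BCL2 family and caspase list the highest (0.20, but -0.10 with detection required on all 12 arrays), and every called member of these lists is negative.

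The 21 positive interactions held no member of the lists, and all 21 had a fitted knockdown effect above 0 in hypoxia. For MCOLN2, detected on no hypoxia array, that effect (0.10) compares background signals, so its sign was not measured. Of the 21, 12 were called up by the knockdown in hypoxia and not called in normoxia, 4 were down in normoxia and up in hypoxia, 3 were down in normoxia and not called in hypoxia, and 2 were up at both levels. In siControl cells 17 of the 21 fell in hypoxia, of which 7 also fell in siIGF1R cells, 6 were not called there and 4 rose. As for the negative genes, these counts come from the values that selected the set and only describe it. The interactions ranged from 0.67 to 1.46 with a median of 0.81.

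SIN3A, the scaffold of a histone deacetylase corepressor, lay at 9.64, 9.81 and 9.71 in normoxia siControl arrays A, B and C, at 9.76, 9.86 and 9.72 in normoxia siIGF1R, at 9.21, 9.40 and 9.17 in hypoxia siControl and at 10.35, 10.11 and 10.15 in hypoxia siIGF1R. The hypoxia siIGF1R arrays were the highest and the hypoxia controls the lowest of all 12 arrays, without overlap, and the normoxia groups overlapped. The hypoxia effect was -0.46 in siControl cells (adjusted p = 0.00187) and 0.42 in siIGF1R cells (adjusted p = 0.00343), and the interaction was 0.88 ± 0.14 (adjusted p = 0.0162).

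SPATA2L lay at 7.17, 7.36 and 7.37 in normoxia siControl arrays A, B and C, at 7.24, 7.20 and 7.23 in normoxia siIGF1R, at 6.76, 6.69 and 6.68 in hypoxia siControl and at 7.49, 7.48 and 7.36 in hypoxia siIGF1R. The hypoxia controls were the lowest, the hypoxia siIGF1R arrays overlapped the normoxia controls, and the interaction was 0.80 ± 0.12 (adjusted p = 0.0129). SIN3A and SPATA2L were the 2 positive genes called in all 12 fits that left out 1 array. CBX2, a subunit of the Polycomb complex PRC1, rose on knockdown at both levels, by 0.30 ± 0.09 in normoxia (adjusted p = 0.0354) and by 1.05 ± 0.09 in hypoxia (adjusted p = 1.1e-05), an interaction of 0.74 ± 0.13 (adjusted p = 0.0221). SLC25A28, an iron transporter of the mitochondrial membrane, had hypoxia effects of -1.56 in siControl and -0.80 in siIGF1R cells (interaction 0.76, adjusted p = 0.0162).

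A few positive genes turned direction. ALG11, a mannosyltransferase of N-glycan assembly, lay at 7.53, 7.29 and 7.54 in normoxia siControl arrays A, B and C, at 6.77, 6.94 and 7.02 in normoxia siIGF1R, at 6.90, 6.82 and 6.96 in hypoxia siControl and at 7.37, 7.16 and 7.54 in hypoxia siIGF1R. Normoxia controls and hypoxia siIGF1R arrays overlapped at the high end, and normoxia siIGF1R arrays and hypoxia controls at the low end. The knockdown effect was -0.55 ± 0.12 in normoxia (adjusted p = 0.00782) and 0.47 ± 0.12 in hypoxia (adjusted p = 0.0115), an interaction of 1.02 ± 0.16 (adjusted p = 0.0162). CDR2 turned from -0.30 to 0.51 (interaction 0.81, adjusted p = 0.0162) and PPP1R12C, a myosin phosphatase subunit, from -0.51 to 0.53 (interaction 1.04, adjusted p = 0.0223). The largest value, 1.46 ± 0.31 for EED, a subunit of the Polycomb complex PRC2, was also the last inside the threshold. EED was dim, detected on no hypoxia control array, and at least 1.32-fold higher with siIGF1R than without in hypoxia.

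**Figure D5:**
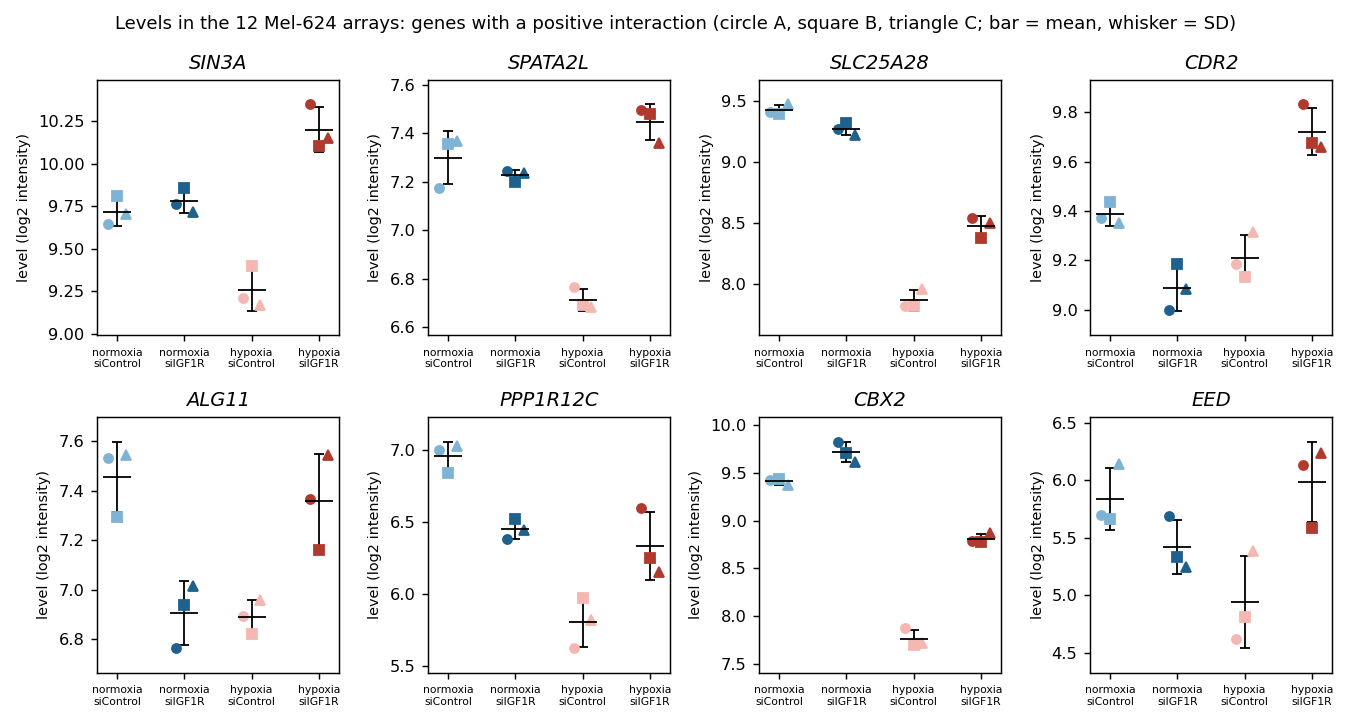
Levels (log2 intensity) of 8 genes with a called positive interaction in the 12 arrays; symbols are arrays A, B and C, bars are group means and whiskers SD (n = 3). In hypoxia the siIGF1R mean lies above the siControl mean in all 8 panels, and for SIN3A the hypoxia siIGF1R arrays are the highest of all.

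How firmly a gene was called differed widely. Leaving out 1 array at a time left between 21 genes called (without normoxia siControl array A) and 64 (without hypoxia siIGF1R array B). Called in all 12 of these fits were 15 of the 55 negative genes, among them FOS, EGR1, DUSP1, NR4A3, HSPA1B, HSPA6, MAFF, CCN1, PLOD2, BMPR2 and TRPM1, and 2 of the 21 positive ones. CCN1 was detected on no normoxia array, so its normoxia knockdown effect was not measured, and refits cannot settle its interaction. Of the 15, HSPA6 (adjusted p = 0.0774), TRPM1 (0.108) and STAMBPL1 (0.197) were not called with the deposited normalized values. MAFF reached an adjusted p of 0.209 in another alternative. Without both siIGF1R A arrays, which stood apart, 18 genes were called, 16 negative and 2 positive, of which 15 were among the 76. FOS, DUSP1, HSPA1B, CRYAB, MAFF, PLOD2, BMPR2 and TRPM1 kept their calls there, whereas HSPA6, CCN1 and SPATA2L (adjusted p = 0.0569 for each), EGR1 (0.0595), SIN3A (0.0658) and NR4A3 (0.0768) did not. In 45 of the 55 negative and 15 of the 21 positive genes, all 4 groups were detected on every array. Of the 76 genes, 12 had more than 1 kept probe, and in 9 of these all probes had the same sign. The exceptions were MME, RNFT2 and NEDD9, a scaffold of focal adhesions, whose called probe gave -0.92 and whose other probes gave -0.45, 0.64 and 1.18.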

How the data were processed

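Per the file headers, the deposited table gives, for each probe and array, an average signal intensity not normalized between arrays and a detection p-value; per the submitters' processing notes it was made in GenomeStudio, with no version given in the sources used here. Normalized intensity in another deposited table served only as an alternative. The 12 Mel-624 arrays were then normalized by neqc (offset 16; limma 3.58.1, R 4.3.3), which infers leftover background from detection p-values, equalizes the quantiles of the arrays and takes log2. Probes were named through the platform annotation given (27003 of 47231 with 1 symbol). Probes detected at p below 0.01 on 3 or more of the 12 arrays were kept, and the brightest of these stood for its gene, leaving 9292 genes. Group means of 3 arrays were fitted with lmFit and eBayes, with the threshold for a call set at 0.05 on the p adjusted by Benjamini-Hochberg over all genes. The fit was also run on simulated data with known interactions, whose result is not given here. The simulated noise was independent between arrays, so arrays that deviate together were not covered. Effects are log2 fold changes ± SE. Where a group was detected on none of its arrays, a fold is given as "at least", with that group's signals raised to the lowest detected signal of each array.

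Named are fixed genes of IGF and hypoxia biology, the 20 largest called interactions per direction, and up to 4 members with the smallest p of each of the 31 gene lists. JUN, DUSP6, SPRY2, SPRY4, HSPA8, HSP90AA1, LSS, RAB3GAP1, MSH6, MME, RNFT2, NEDD9 and S100B were named besides, after their values were seen. The members, lists and named genes were chosen with earlier results of these data known. Promoters come from RefSeq (GRCh38.p14), with a sequence for 7593 of the 9292 genes. Alternatives tried were no further background correction, offset 50, median scaling, cyclic loess, normalization over all 24 arrays, the normalized values as deposited, a detection filter on all 12 arrays or none, the mean of probes, the replicate letter as a block, chip position as a covariate, trend and robust moderation, array weights, a fold of at least 1.5 and each array left out. Same-lettered arrays deviated together weakly (r from -0.04 to 0.18, 5 of 18 pairs over 0.1). Arrays of different letters and groups reached at most 0.08, and 8 of 12 arrays were matched best by their own letter. The labels do not describe the letters as pairs, so the main fit did not use them. With the letter as a block the negative calls fell from 55 to 32.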

Additional observations from a re-analysis of the deposited data

Results flagged for a closer look

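All results listed here are differences of the siIGF1R effect between hypoxia and normoxia that passed the test of the difference itself (the interaction, limma, adjusted p below 0.05). Values are log2, hypoxia minus normoxia. A negative value means that the knockdown lowered the gene more in hypoxia, raised it less, or raised it in normoxia and lowered it in hypoxia. The fitted effects had opposite signs at the 2 oxygen levels for 23 of the 55 negative and 15 of the 21 positive genes.

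The stress chaperones CRYAB (-1.50), HSPA6 (-1.48) and HSPA1B (-1.43) were among the largest negative values; CRYAB was detected on 1 normoxia control array and no normoxia siIGF1R array, so its value and rank are uncertain. Transcription factors and their feedback genes followed with NR4A3 (-1.32), EGR1 (-1.30), FOS (-1.15), MAFF (-1.07), DUSP1 (-1.05), BCL3 (-0.99), MYC (-0.76) and PHLDA1 (-0.68). BCL3, a nuclear member of the IkB family, was detected on no normoxia array. Genes of the surface, the matrix or secretion were TRPM1 (-1.22), BMPR2 (-1.22), CCN1 (-1.17), SCG2 (-1.16, a granin of secretory vesicles), UPK1A (-1.08, a uroplakin) and PLOD2 (-1.0). CCN1 was detected on no normoxia array, so its value is uncertain. SCG2 was detected on no normoxia control array and UPK1A on no normoxia siIGF1R array. Further negative values were those of VMA21 (-1.14), TMEM74B (-1.14), NUP58 (-0.97, a nucleoporin), STAMBPL1 (-0.96) and PXMP2 (-0.95). Metabolic genes were PDK4 (-0.84), DHCR7 (-0.83) and SCD5 (-0.65).

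On the positive side stood the Polycomb subunits EED (1.46) and CBX2 (0.74) and the corepressor scaffold SIN3A (0.88). PALS2 (1.06, a membrane scaffold), BORCS6 (1.06, a subunit of a lysosome-positioning complex) and MCOLN2 (1.05, a lysosomal channel) came next, of which BORCS6 was detected on no hypoxia control array and MCOLN2 on no hypoxia array. They were followed by PPP1R12C (1.04), ALG11 (1.02) and DLX5 (1.01, a homeobox factor, detected on no normoxia control array). Lower values belonged to RCL1 (0.91, a ribosome biogenesis factor), BPGM (0.90, the bisphosphoglycerate mutase), CDR2 (0.81), SPATA2L (0.80), KCNS3 (0.79, a potassium channel subunit) and MT1X (0.79). MT1X is 1 of several similar metallothionein genes, and its probe may read others. MYO16 (0.78), an unconventional myosin detected on no hypoxia control array, and RNU6ATAC (0.77), a small RNA of the minor spliceosome detected on no normoxia siIGF1R array, came next. SLC25A28 (0.76), RASSF7 (0.74), CYB561D1 (0.68) and the mismatch repair gene MSH6 (0.67) completed the 21 positive genes.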

How the results depend on the processing

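The number of called interactions depended on the settings far more than their direction. In every alternative run 54 of the 55 negative genes and all 21 positive genes kept their sign, the exception being NEDD9 at 0.113 with the mean of its probes. Every run reused arrays of the fit that selected these genes, so a kept sign was likely beforehand and is weak evidence. No single gene kept its call through all the alternative runs (0 of the 55 and 0 of the 21), though most runs still called some of them. Counts are given as positive and negative. They were 11 and 28 without further background correction, 42 and 102 with offset 50, 50 and 86 with detection on all 12 arrays, 8 and 24 with no detection filter, 51 and 117 with trend and robust moderation, 47 and 85 with array weights, and 14 and 29 with chip position as a covariate. With the deposited normalized values they were 22 and 40, so that 64.5% of calls were negative against 72.4%. With the replicate letter as a block, which the labels do not show to pair the arrays, they were 21 and 32; 8 of 12 arrays were matched best by their own letter, a hint from the data only. Median scaling left 0 and 1: it moved the median interaction of all genes from 0.01 to 0.12, relative to which the sterol list lay at -0.32 and the early response list at -0.13, against -0.32 and -0.15 relative to the median of all genes with neqc. Median scaling over kept probes, chosen after seeing the data, left 13 and 26. Leaving out 1 array left 4 to 16 positive and 15 to 48 negative calls, and leaving out both siIGF1R A arrays, also chosen after seeing the data, left 2 and 16; both remove samples. The cause of the other changes was not tested.

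FOS, DUSP1, HSPA1B, PLOD2, PXMP2 and VMA21 were called in 27 of 28 alternatives. The exception for each of these 6 genes was median scaling. IGF1R passed the threshold with offset 50 (-0.94), with detection on all 12 arrays, trend and robust moderation or array weights (-1.04 in each), and without hypoxia siIGF1R array B (-1.25); with 1 array left out it ranged from -0.83 to -1.25. Knockdown calls in normoxia fell to 794 with median scaling, 348 with chip position and 459 at 1.5-fold or more, and ranged from 888 (without normoxia siControl array A) to 1565 with 1 array left out, with 905 without normoxia siIGF1R array B. In hypoxia they fell to 1256 with position and 831 at 1.5-fold. Hypoxia calls fell to 1359 and 2575 in siControl cells and to 1550 and 2457 in siIGF1R cells under the same pair of settings. The BCL2 list median was -0.10 with detection on all 12 arrays and -0.09 without normoxia siIGF1R array C. Genes that were not called and changed sign were VEGFA (0.0125 with the deposited values, 0.0333 with the mean of probes), ACTA2 (-0.0438 without both A arrays), CCL5 (-0.409 with the deposited values) and DCN (0.0334 with median scaling, 0.0402 with the deposited values, -0.159 to 0.0516 with 1 array left out). Among 56 other results of genes not called, an alternative brought the gene past the threshold, and among 939 results of called genes it took the gene out.

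With 3 arrays per group, a missed threshold does not show that effects were equal, and a probe near background understates a difference within 1 oxygen level, which can make the interaction larger or smaller. Single-chip layout and unstated culture replication limit what the interaction can be read as.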
